A study of Mus musculus with 4 samples.

Results

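The epidermal differentiation complex is a block of neighbouring genes on chromosome 3 that encode much of the protein coat of the skin surface. The genes described here are its late cornified envelope genes (Lce), its fused-type genes, loricrin, involucrin and a few neighbours, without the Sprr1, Sprr2 and S100 genes. They were chosen by name, as 32 symbols, with earlier results of these data known. A probe set that the array annotation assigns to 1 of these symbols alone was found for 30 of the 32, out of 19938 genes with such a probe set, and each of the 30 had exactly 1. Expression of Flg and Lce1m was not analysed here, and both appear only among the promoters.

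As keratinocytes leave the basal layer and reach the granular layer, they make precursor proteins that transglutaminases then cross-link beneath the cell membrane into the cornified envelope. Loricrin and involucrin are the classic precursors, and the small Lce proteins are added late. Fused-type proteins such as filaggrin and hornerin combine an S100-like calcium-binding start with long repeats and are stored in granules. In mouse embryos this programme switches on in late gestation, when the skin barrier forms.

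Total RNA of E16.5 skin was hybridised to 4 Affymetrix whole-transcript arrays, each with RNA of 2 mice. The 2 Ovol2 BT arrays came from embryos carrying TRE-Ovol2-Flag and K5-tTA, so that the keratin 5 promoter, active in basal keratinocytes, drives a transactivator that switches on tagged Ovol2, a zinc finger transcription factor of epithelia. The 2 control arrays came from embryos with TRE-Ovol2-Flag alone or wild type, and the labels name no control with K5-tTA alone. The labels give the strain FVB/N for Ovol2 BT and CB6F1 for control, so genotype and strain cannot be told apart. The growth protocol nevertheless speaks of littermates. The age was picked by the submitters because the skin still looked much alike, so as to find early differences in transcripts. Nothing in the labels says whether the pairs of mice came from separate litters, so p-values measure only the spread between these arrays.

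All values below are log2(intensity + 16), where intensity is the deposited PLIER signal of a probe set. Differences are Ovol2 BT minus control on that scale, and 1 unit is a doubling. The 14953 genes bright enough to be tested were fitted together in limma, and a change was called where the Benjamini-Hochberg adjusted p stayed under 0.05. Ovol2 itself read 12.93 and 12.96 on the Ovol2 BT arrays and 7.59 and 8.29 on the control arrays, a rise of 5.01 with an SE of 0.27 (n = 2 and 2 arrays, limma adjusted p = 0.0253). Keratinocyte and dermal genes were bright on every array: Krt5 read 12.88 and 12.96 in Ovol2 BT and 13.80 and 13.77 in control skin, and Col1a1 read 13.52 and 13.58 in Ovol2 BT and 13.50 in both control arrays.

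Some arrays went against their labels or stood apart. All 4 are labelled female, but the Y-linked gene Eif2s3y read 10.40 and 4.72 on Ovol2 BT replicates 1 and 2 and 10.13 and 6.17 on control replicates 1 and 2. Xist, expressed from the inactive X of females, read 8.36 and 10.80 in Ovol2 BT and 7.07 and 13.16 in control skin. The Y-linked signal thus splits the replicate numbers and not the genotypes. Ovol2 BT replicate 2 had Pearson correlations of 0.924 to 0.935 with the other arrays over the genes tested, against 0.976 to 0.983 among the other 3 (genes are not independent replicates). Results are therefore also given within each replicate number and without each Ovol2 BT array.

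None of the 26 members tested was called changed in limma, against 4 of 14953 genes in all (0.0268%), 3 of them higher (0.0201%). At an unadjusted p under 0.05, 20 of the 26 were higher and 0 lower in Ovol2 BT skin, where all genes tested gave 2.49% higher and 1.74% lower. Both Ovol2 BT arrays lay over both control arrays for 22 of the 26 members, against 20.1% of all genes tested, and under both for 1, against 14.1%. The difference was above 0 for 24 of the 26 members and for 54.4% of all genes. As the members were picked with earlier results known, these shares describe them and are not independent support. The members' median difference was 0.67, beside 0.03 over all genes tested. On Ovol2 BT replicates 1 and 2 alone, set against the control mean, the median was 0.79 and 0.55. Within replicate number 1, where both arrays carried the Y-linked signal, it was 0.64, and within replicate number 2 it was 0.48. The other 4 measured members, Lce3a, Lce3b, Rptn and Tchhl1, were too dim to be tested.

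Members were called only in fits that left out 1 of the Ovol2 BT arrays. Without Ovol2 BT replicate 1, 15 members were called higher and 1 lower in limma, where 3.61% of all genes were called higher and 12.8% lower. Without Ovol2 BT replicate 2, 11 members were called higher and 0 lower, where the shares over all genes were 0.448% and 0.268%. These fits assume that the lone Ovol2 BT array varies as the controls do. The 11 were all among the 16: Kprp, Lce1b, Lce1d, Lce1e, Lce1f, Lce1h, Lce1i, Lce1k, Lce1l, Lce3e and Pglyrp3. Both fits use the same control arrays, so the second list is not separate support for the first.

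The Lce1 genes, the largest branch of the Lce family in mouse, were higher in Ovol2 BT skin without exception among the 13 measured. For each of the 13, both Ovol2 BT arrays lay over both control arrays. The differences ran from 0.15 to 1.21, or 1.11-fold to 2.31-fold, with a median of 0.72. In 13 of 13 the difference was larger than the gap between the control arrays, and 12 had an unadjusted p under 0.05. Their smallest adjusted p in limma was 0.126. The median was 0.93 within replicate number 1 and 0.61 within replicate number 2. All 13 were positive in each, which follows from the lack of overlap between the groups. The summed intensity of the 13 was 106264 and 97618 in Ovol2 BT and 66429 and 69296 in control skin.

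**Figure D1:**
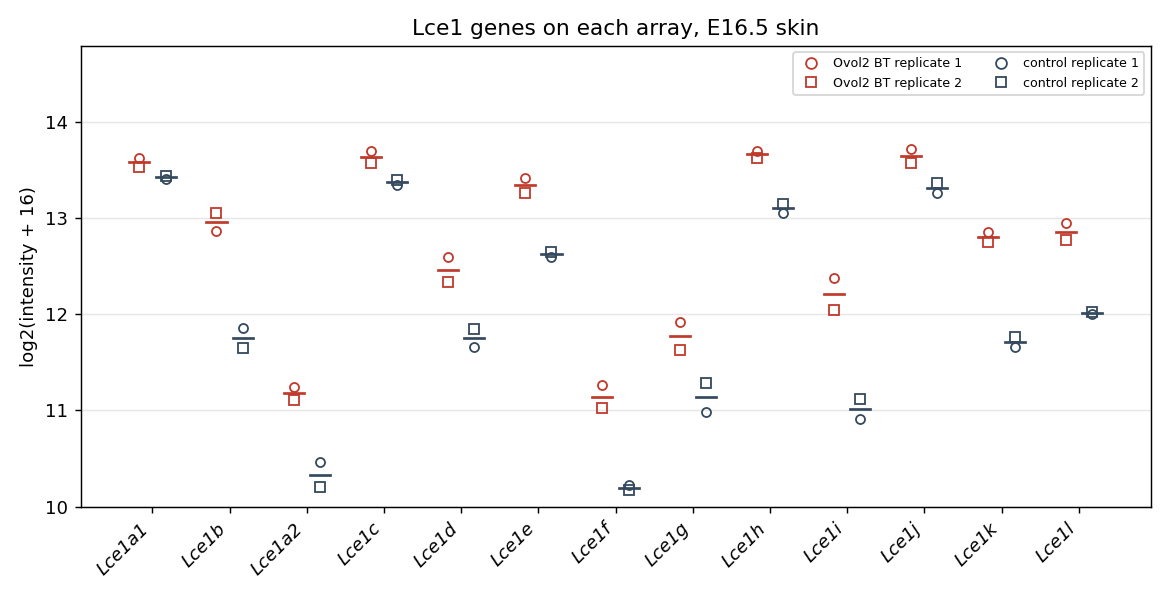
Log2(intensity + 16) of the 13 measured Lce1 genes on each array, in their order along chromosome 3. Red symbols on the left of each gene are Ovol2 BT, dark symbols on the right are control, circles are replicate 1, squares are replicate 2 and bars are group means; for every gene both Ovol2 BT symbols lie over both control symbols, by 0.09 for Lce1a1 and 1.01 for Lce1b.

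Lce1b differed most. It read 12.87 and 13.05 in Ovol2 BT skin and 11.86 and 11.65 in control skin, a difference of 1.21 (SE 0.13, limma adjusted p = 0.155). Its 2 groups were 1.01 apart at their nearest arrays, the widest gap of the 13 genes. Lce1i read 12.37 and 12.05 in Ovol2 BT and 10.91 and 11.12 in control skin, a difference of 1.20 (SE 0.17, limma adjusted p = 0.346). Lce1k read 12.85 and 12.75 in Ovol2 BT and 11.66 and 11.76 in control skin, a difference of 1.09 (SE 0.11, limma adjusted p = 0.126). For all 3 genes the arrays of a group lay within 0.33 of each other.

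A middle set of Lce1 genes lay between 0.56 and 0.95. Lce1f read 11.26 and 11.02 in Ovol2 BT and 10.22 and 10.17 in control skin, a difference of 0.95 (SE 0.18). Lce1a2 read 11.24 and 11.11 in Ovol2 BT and 10.46 and 10.20 in control skin, a difference of 0.85 (SE 0.18). Lce1l read 12.94 and 12.77 in Ovol2 BT and 12.00 and 12.02 in control skin, a difference of 0.85 (SE 0.10). In these 3 genes the groups stood well apart on both arrays. Lce1e read 13.42 and 13.26 in Ovol2 BT and 12.59 and 12.65 in control skin, a difference of 0.72 (SE 0.09). Lce1d read 12.60 and 12.33 in Ovol2 BT and 11.66 and 11.85 in control skin, a difference of 0.71 (SE 0.14). Like 12 of the 13 Lce1 genes in all, Lce1d and Lce1g had the lower of their Ovol2 BT values on replicate 2. Lce1g read 11.91 and 11.62 in Ovol2 BT and 10.98 and 11.29 in control skin, a difference of 0.63 (SE 0.18). Lce1h read 13.70 and 13.62 in Ovol2 BT and 13.06 and 13.15 in control skin, a difference of 0.56 (SE 0.07).

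The smallest differences belonged to Lce1j, Lce1c and Lce1a1. Lce1j read 13.71 and 13.57 in Ovol2 BT and 13.26 and 13.36 in control skin, a difference of 0.33 (SE 0.08). Lce1c read 13.69 and 13.57 in Ovol2 BT and 13.35 and 13.40 in control skin, a difference of 0.26 (SE 0.07). Lce1a1 read 13.62 and 13.53 in Ovol2 BT and 13.41 and 13.44 in control skin, a difference of 0.15 (SE 0.06). Lce1a1 was the 1 Lce1 gene that missed an unadjusted p of 0.05 in limma, with a 95% confidence interval from -0.00082 to 0.31. The Lce1 genes are close copies of each other, and probe sequences were not used here, so signal shared between their probe sets was not tested.

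The size of the difference fell off with the brightness of the probe set. The 4 Lce1 genes with a control mean of 13 or more differed by 0.15 to 0.56, and the 9 dimmer ones by 0.63 to 1.21. Over the 13 Lce1 genes Pearson's r between control mean and difference was -0.73 and Spearman's rho was -0.74, and over the 26 members tested they were -0.51 and -0.61. These describe probe sets that share the same 4 arrays, and brightness is not compared here as abundance. The control mean is also subtracted in the difference, so error in that mean alone pushes these correlations below 0. Over all genes tested, the median absolute difference was 0.17 for the 5782 with a mean level under 9 and 0.07 for the 139 at 13 or more. Of those 139 genes, 20.1% had both Ovol2 BT arrays over both control arrays, and among the 8 members at that brightness it was 6. The highest value in the whole table was 14.73. Whether bright probe sets were limited in the differences they can show was not tested.

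**Figure D2:**
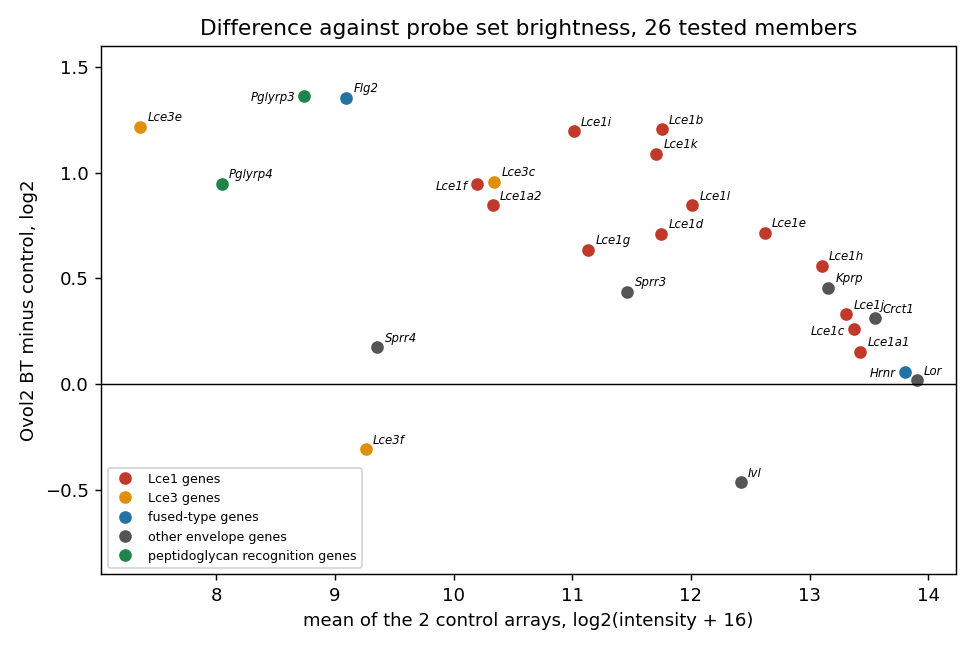
Difference between Ovol2 BT and control (log2) against the mean of the 2 control arrays (log2(intensity + 16)) for the 26 tested members, coloured by gene group. Members at a control level of 13 or more lie at 0.56 or less, and Ivl and Lce3f are the members below 0.

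The Lce3 genes, a branch linked in people to skin injury and psoriasis, were mixed. Lce3e read 8.51 and 8.64 in Ovol2 BT and 7.33 and 7.39 in control skin, a difference of 1.22 (SE 0.15, limma adjusted p = 0.246). Lce3c read 11.34 and 11.26 in Ovol2 BT and 10.11 and 10.57 in control skin, a difference of 0.96 (SE 0.21, limma adjusted p = 0.669). Both genes were higher on each Ovol2 BT array than on either control. Lce3f went the other way, with 8.86 and 9.04 in Ovol2 BT and 9.08 and 9.44 in control skin, a difference of -0.31 (SE 0.21, 95% confidence interval -0.84 to 0.22, limma adjusted p = 0.906). Its nearest arrays of the 2 groups were 0.04 apart, and the difference was -0.13 with control replicate 2 left out and -0.49 with control replicate 1 left out. Lce3b, near the lower end of the signal, read 7.01 and 6.98 in Ovol2 BT and 6.86 and 6.90 in control skin, and Lce3a read 6.77 and 7.57 in Ovol2 BT and 7.11 and 7.24 in control skin. For Lce3a the control values lay between the Ovol2 BT values.

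Promoter sequences are shown because members with large, small and no differences can then be set side by side. RefSeq promoters of GRCm38.p6 were at hand for 27 of the 32 members, each with 250 bases before and 50 after the annotated start. The Lce1 promoters among them are 12 of measured genes and that of Lce1m, whose expression was not analysed, while measured Lce1f has no entry. The last 100 bases before the start are printed, 5′ to 3′ on the gene's strand. Capitals mark the string TCTCACAGG where it occurs. They also mark a box near the start, spelled ATAAAA in 8 genes and TATAAA in involucrin, and the AP-1 motif of loricrin. The first 3 are the Lce1 genes with the largest differences, and the fourth, Lce1c, had one of the smallest.
Lce1b, chr3:92656927-92657026, minus strand: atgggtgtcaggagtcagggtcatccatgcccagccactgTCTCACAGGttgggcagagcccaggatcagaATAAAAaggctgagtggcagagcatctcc
Lce1i, chr3:92778900-92778999, minus strand: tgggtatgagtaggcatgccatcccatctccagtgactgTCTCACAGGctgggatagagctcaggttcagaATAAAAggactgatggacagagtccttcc
Lce1k, chr3:92807892-92807991, minus strand: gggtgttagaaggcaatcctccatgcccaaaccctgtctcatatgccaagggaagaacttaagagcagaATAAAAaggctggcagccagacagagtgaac
Lce1c, chr3:92679147-92679246, plus strand: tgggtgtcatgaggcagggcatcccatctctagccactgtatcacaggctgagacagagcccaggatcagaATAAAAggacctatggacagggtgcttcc

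The next 3 are Lce3 genes, of which Lce3c and Lce3e were higher in Ovol2 BT skin and Lce3f was not. The last 2 are loricrin and involucrin, which were not higher.
Lce3c, chr3:92944386-92944485, plus strand: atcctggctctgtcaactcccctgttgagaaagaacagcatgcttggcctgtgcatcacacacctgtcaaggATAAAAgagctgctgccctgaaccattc
Lce3e, chr3:92966961-92967060, plus strand: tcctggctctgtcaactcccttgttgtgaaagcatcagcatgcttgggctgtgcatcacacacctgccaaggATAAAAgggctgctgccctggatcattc
Lce3f, chr3:92992117-92992216, plus strand: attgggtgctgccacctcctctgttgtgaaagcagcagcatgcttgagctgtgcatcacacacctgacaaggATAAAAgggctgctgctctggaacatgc
Lor, chr3:92083143-92083242, minus strand: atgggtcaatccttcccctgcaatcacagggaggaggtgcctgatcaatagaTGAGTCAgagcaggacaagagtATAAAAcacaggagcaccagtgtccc
Ivl, chr3:92573736-92573835, minus strand: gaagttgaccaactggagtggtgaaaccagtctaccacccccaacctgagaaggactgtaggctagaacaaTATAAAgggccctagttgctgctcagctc

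Over these 100 bases, Lce3e matched Lce3c at 90.1% and Lce3f at 84.0% of aligned positions. The Lce3f difference was -0.31 with a confidence interval from -0.84 to 0.22, so its direction was not settled. Whether promoter sequence bears on the Lce3 differences was not tested. The 78 pairs among the 13 Lce1 promoters, Lce1m included, matched at 44.8% to 90.0%, with a median of 66.2%. The box ATAAAA stood between bases -40 and -20 in 12 of 13 Lce1 promoters, Lce1m included, and 4 of 5 Lce3 promoters, and in 1.59% of the 32851 promoters of the table. TCTCACAGG stood in 7 of 13 Lce1 promoters and 0 of 5 Lce3 promoters, and in 0.25% of the table. Both strings were picked after the sequences were read and were sought on the gene's strand only, the box in that window and TCTCACAGG in the whole 300 bases. The 7 Lce1 genes that held it differed by 0.15 (Lce1a1) to 1.21 (Lce1b), and the 5 other measured Lce1 genes with a promoter entry by 0.26 (Lce1c) to 1.09 (Lce1k).

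Binding motifs of known factors were sought on both strands of the same 300 bases. The OVO core CCGTTA, the motif of Ovol proteins, was in 0 of the 27 members' promoters and in 2.76% of the table. The AP-1 motif TGANTCA was in 6, namely Lor, Ivl, Flg, Flg2, Rptn and Tchhl1, and in 7.81% of the table. None of the 13 Lce1 promoters, Lce1m included, held it. The C/EBP motif TTGCNNAA was in 4 (10.8% of the table) and the grainyhead motif AACNGGTT in 1 (2.09% of the table). The string TATAAA, on the gene's strand and overlapping ATAAAA in some promoters, was in 8 (8.32% of the table). A match is only a run of letters in this window.

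Loricrin (Lor), the main protein of the envelope, did not differ beyond the array spread. It read 13.96 and 13.88 in Ovol2 BT and 13.92 and 13.88 in control skin, a difference of 0.02 with a 95% confidence interval from -0.11 to 0.15. The Lor probe set was brighter than those of nearly all genes (percentile 99.96). Whether that limits the difference it can show was not tested. Involucrin (Ivl), an early envelope scaffold protein, read 12.20 and 11.72 in Ovol2 BT and 12.69 and 12.15 in control skin, a difference of -0.46 (SE 0.24, 95% confidence interval -1.06 to 0.14, limma adjusted p = 0.906). The Ivl groups overlapped, with replicate 2 the lower array in each. Within replicate numbers 1 and 2 the Ivl difference was -0.49 and -0.44. It was -0.70 without Ovol2 BT replicate 1, where it was called lower (limma adjusted p = 0.0325), -0.22 with Ovol2 BT replicate 2 left out, -0.20 with control replicate 1 left out and -0.73 with control replicate 2 left out.

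Kprp, a keratinocyte proline-rich protein, and Crct1, a small cysteine-rich protein, were higher on both Ovol2 BT arrays. Kprp read 13.69 and 13.53 in Ovol2 BT and 13.11 and 13.20 in control skin, a difference of 0.46 (SE 0.08, limma adjusted p = 0.468). Crct1 read 13.88 and 13.85 in Ovol2 BT and 13.59 and 13.51 in control skin, a difference of 0.31 (SE 0.06, limma adjusted p = 0.468). Sprr3, a small proline-rich envelope precursor, read 11.94 and 11.87 in Ovol2 BT and 11.54 and 11.39 in control skin, a difference of 0.44 (SE 0.13, limma adjusted p = 0.906). Sprr4, of the same family, read 9.60 and 9.47 in Ovol2 BT and 9.34 and 9.37 in control skin, and its difference of 0.18 had an interval from -0.28 to 0.64 (0.11 with Ovol2 BT replicate 1 left out). Of these 6 envelope genes, counting Lor and Ivl, 4 had both Ovol2 BT arrays over both controls, and the median difference was 0.24.

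Among the fused-type genes, Flg2 and hornerin (Hrnr) were bright enough to be tested. Flg2, a relative of filaggrin, read 10.43 and 10.47 in Ovol2 BT and 9.87 and 8.32 in control skin, a difference of 1.35 (SE 0.50, 95% confidence interval 0.09 to 2.62, limma adjusted p = 0.906). The control arrays were 1.56 apart, more than the groups, and the difference was 0.58 when control replicate 2 was left out and 2.13 when control replicate 1 was. Hrnr read 13.95 and 13.77 in Ovol2 BT and 13.90 and 13.71 in control skin, a difference of 0.06 with an interval from -0.17 to 0.28. The Hrnr probe set was also among the brightest (percentile 99.94), and a limit from that was not tested. Repetin (Rptn) read 6.33 and 5.87 in Ovol2 BT and 7.04 and 5.97 in control skin, and Tchhl1, a trichohyalin-like gene, read 7.33 and 6.91 in Ovol2 BT and 6.89 and 7.18 in control skin. Both were dim and their groups overlapped.

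**Figure D3:**
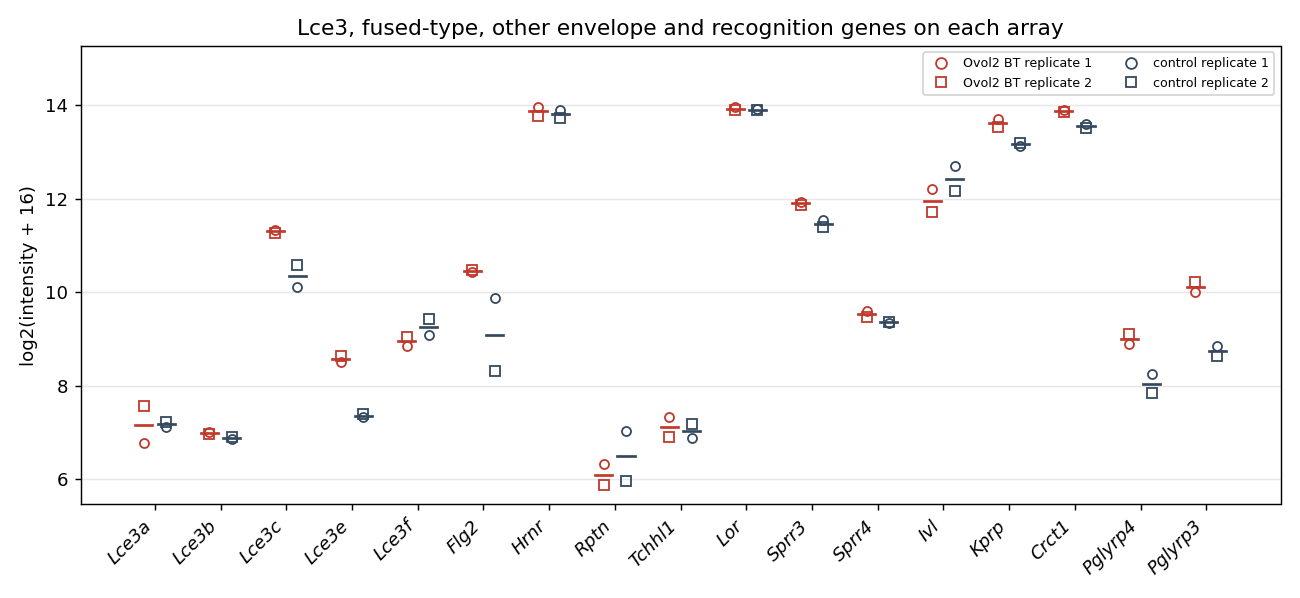
Log2(intensity + 16) of the 17 other measured members on each array, grouped as Lce3 genes, fused-type genes, other envelope genes and peptidoglycan recognition genes. Red symbols on the left of each gene are Ovol2 BT, dark symbols on the right are control, circles are replicate 1, squares are replicate 2 and bars are group means; Pglyrp3 and Lce3e show the groups widely apart, and the control arrays of Flg2 are 1.56 apart.

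The genes of the peptidoglycan recognition proteins Pglyrp3 and Pglyrp4, secreted proteins that bind and kill bacteria, come before all other members along chromosome 3. Pglyrp3 read 10.01 and 10.21 in Ovol2 BT and 8.85 and 8.64 in control skin, a difference of 1.37 (SE 0.20, limma adjusted p = 0.377), or 2.58-fold, the largest of the 26 members tested. Pglyrp4 read 8.89 and 9.11 in Ovol2 BT and 8.25 and 7.84 in control skin, a difference of 0.95 (SE 0.22, limma adjusted p = 0.703). For both genes Ovol2 BT replicate 2 was the higher Ovol2 BT array, unlike 12 of the 13 Lce1 genes, where it was replicate 1.

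Along chromosome 3, 14 neighbouring measured members, from Lce1a1 to Lce1l, had both Ovol2 BT arrays over both control arrays. They are the 13 Lce1 genes and Kprp, and their differences ran from 0.15 to 1.21. This stretch was picked as the longest such run, so the measured members at its borders had to fail that rule. They are Ivl (-0.46) and Lce3a (-0.01, too dim to be tested), whose groups overlapped. Just past them, Sprr3 and Sprr4 on one side and Lce3b, Lce3c and Lce3e on the other had both Ovol2 BT arrays higher. Of all 30 measured members, 23 did so and 1 had both lower, so the pattern was not confined to the stretch. Large and small differences alternated inside the stretch, as with Lce1a1 (0.15), Lce1b (1.21), Lce1a2 (0.85) and Lce1c (0.26), which follow each other in that order. Genes between them that are not members were left aside in this ordering.

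**Figure D4:**
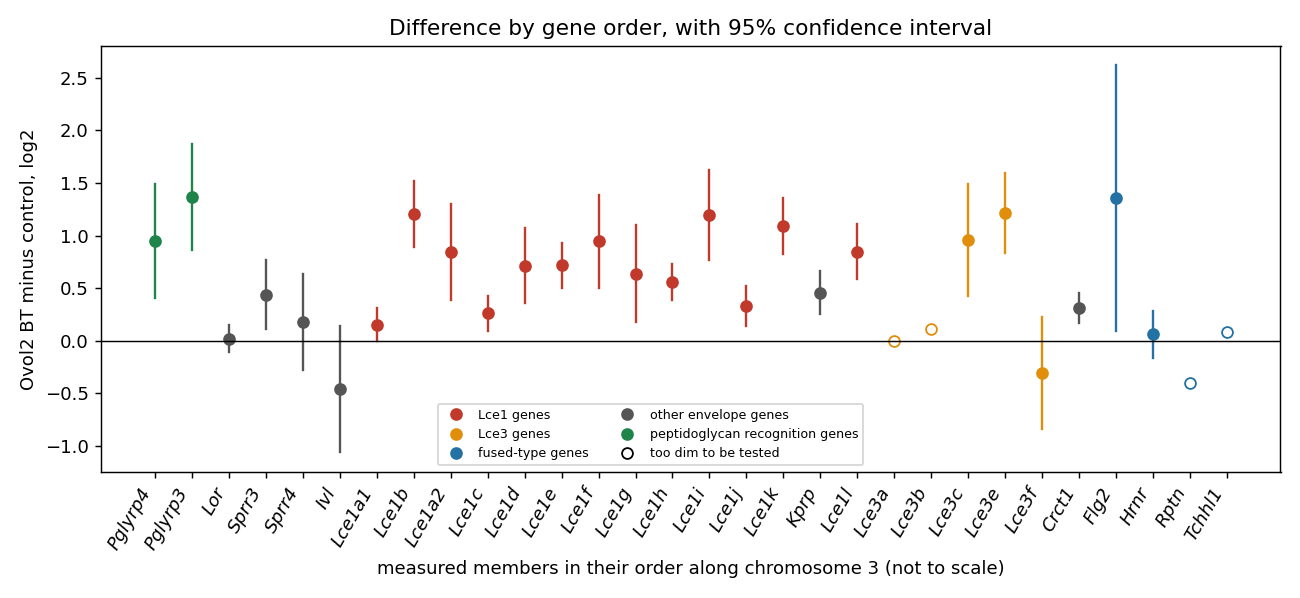
Ovol2 BT minus control (log2) for the 30 measured members in their order along chromosome 3, not to scale, coloured by gene group. Filled points carry the 95% confidence interval of the limma fit and open points were too dim to be tested. The points from Lce1a1 to Lce1l, picked as the longest run with both Ovol2 BT arrays higher, lie above 0. By that rule the run ends at Ivl (-0.46) and Lce3a (-0.01).

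Genes that act on the same proteins were counted from lists. None of 13 tested envelope cross-linking and scaffold genes was called. At an unadjusted p under 0.05, 2 were higher and 2 lower, and the median of the 13 was -0.08. By the same limma cut, 2.49% of all genes tested were higher and 1.74% lower. Both Ovol2 BT arrays lay under both controls for 6 of the 13 and over both for 2. Over all genes tested these shares were 14.1% and 20.1%. Tgm3, a transglutaminase that cross-links envelope proteins, read 9.14 and 10.27 in Ovol2 BT and 11.24 and 10.61 in control skin (-1.22, SE 0.43), and Tgm5, another, read 9.55 and 10.19 in Ovol2 BT and 8.97 and 8.85 in control skin (0.96, SE 0.26). Of 12 tested filaggrin-processing genes, none was called and 2 were higher at an unadjusted p under 0.05, with a median of -0.0033. These were Padi3, which converts arginine to citrulline in such proteins (1.23, SE 0.19), and the protease Prss8 (0.36, SE 0.12). Both Ovol2 BT arrays lay over both controls for 3 of the 12 and under both for 0.

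Transcription factors known to act on the complex were also counted. Of 21 tested, none was called, 1 was lower at an unadjusted p under 0.05 and 0 were higher, and the median was -0.07. The lower one was Satb1, a chromatin organiser that folds this locus in mouse keratinocytes, with 10.51 and 10.36 in Ovol2 BT and 10.80 and 11.02 in control skin (-0.47, SE 0.18, limma adjusted p = 0.906). Cebpa differed by -0.47 (SE 0.23). Both Ovol2 BT arrays lay under both controls for 9 of the 21 factors and over both for 4. Over all genes tested these shares were 14.1% and 20.1%. Of 11 Sprr1 and Sprr2 genes, which lie in the same block, 9 were higher and 0 lower at an unadjusted p under 0.05. None was called, and the median was 0.76, led by Sprr2d (1.63) and Sprr2g (1.12). At an unadjusted p under 0.05 in limma, all genes tested gave 2.49% higher and 1.74% lower.

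Some markers of other epidermal states and of other tissues differed between Ovol2 BT and control arrays, but only Krt8 among them was called. In bulk skin fewer cells of a type and less RNA per cell cannot be told apart. Of 9 periderm markers, 8 had both Ovol2 BT arrays over both controls, with summed intensity 36509 and 38398 in Ovol2 BT and 20465 and 18152 in control skin, and Krt8 was called (2.34, limma adjusted p = 0.0253). Of 7 basal markers, 3 lay lower and 1 higher, with sums of 25078 and 26409 in Ovol2 BT and 38481 and 40250 in control skin, Krt15 (-1.41) and Krt5 (-0.87) among the lower ones. The spinous keratins Krt1 and Krt10 differed by -0.08 each. All 8 markers of visceral endoderm, liver and gut were higher on both Ovol2 BT arrays, with sums of 14283 and 4330 in Ovol2 BT and 1867 and 1987 in control skin, led by Prap1 (3.16) and Afp (3.04). All 7 myeloid markers were higher, with sums of 10591 and 12811 in Ovol2 BT and 8837 and 8346 in control skin. Over all genes tested, both Ovol2 BT arrays lay over both controls for 20.1% and under both for 14.1%. None of the markers measured was listed at 0, and the part of these cells in the Lce values was not tested.

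Most markers of the remaining tissues overlapped between the genotypes. The 4 measured erythroid markers summed to 3958 and 14770 in Ovol2 BT and 3371 and 6753 in control skin, and the 8 skeletal muscle markers to 27626 and 53652 in Ovol2 BT and 50486 and 29040 in control skin, so each group overlapped the other. Of 7 dermal fibroblast markers 2 lay higher and 0 lower, and of 5 endothelial markers 0 higher and 1 lower. Of 6 melanocyte markers 0 lay higher and 2 lower. Over all genes tested, 20.1% lay higher on both Ovol2 BT arrays and 14.1% lower.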

How the data were processed

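Per the submitters' processing notes, the authors summarised the arrays with Affymetrix Expression Console 1.1.1 and PLIER 2.0, and the deposited values are linear intensities, 1 per probe set and array (35557 probe sets, 0 columns of other samples). For the normalisation between arrays and the genome build, the sources used here say nothing. With intensities there is no depth to state; precision is limited by having 4 arrays. Array medians were 266 to 304.

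Probe sets with 1 symbol (21789) were renamed through Entrez numbers to RefSeq GRCm38.p6 (21698 matched). The brightest per gene was kept. Genes under the 25th percentile (7.32) of mean log2(intensity + 16) were left out. limma 3.58.1 in R 4.3.3 fitted Ovol2 BT minus control with an intensity trend, 2 residual and 3.45 prior degrees of freedom, two-sided, Benjamini-Hochberg over 14953 genes. An exact permutation test of 2 against 2 cannot go below p = 0.333. The steps were tested on simulated data. Alternatives changed the normalisation, offset, filter, probe set rule, variance model and array weights, added the replicate number as a block, or left out each array in turn. Promoters were aligned with Biopython 1.88.

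Members and lists were chosen with earlier results of these data known. All members are named, with the members of other lists that passed, or the 2 with the largest difference; the sex genes were picked once their values had been seen. The labels do not say that replicate numbers mark shared litters.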

Additional observations from a re-analysis of the deposited data

Results flagged for a closer look

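A probe set outside the gene comparison gave more signal in Ovol2 BT than in control skin. The annotation lists it for 6 Lce3 genes together, so it was assigned to none of them. It read 11.45 and 11.40 on the Ovol2 BT arrays and 10.92 and 11.33 on the control arrays, a difference of 0.30 with both Ovol2 BT arrays higher. The control arrays lay further apart than this difference, and 20.1% of all genes tested had both Ovol2 BT arrays higher. The difference was not tested.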

How the results depend on the processing

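The number of genes called over all genes was 4, and it was 0 with cyclic loess, 0 with a variance without trend, 10 with median centring, 9 with the replicate number as a block, and 4 to 2453 when 1 array was left out, highest with Ovol2 BT replicate 1 removed (107 with Ovol2 BT replicate 2 removed, 7 with control replicate 1 removed). Of the members, 0 were called under every alternative that kept the 4 arrays, the replicate block included, and 0 to 16 when 1 array was left out. Ovol2 lost its call with cyclic loess (4.99, adjusted p = 0.0543) and without the trend (5.01, adjusted p = 0.059); the causes were not tested. The members' median, 0.67, was 0.51 with no filter, which adds 4 dim genes, and 0.55 to 0.79 with 1 array left out. The Lce1 median, 0.72, was 0.64 to 0.84 with 1 array left out, and all 13 Lce1 differences stayed positive under the 15 alternatives. As both Ovol2 BT arrays lay over both controls for each of the 13, only a change of normalisation could have turned a sign. The Lce3 median, 0.96, was 0.11 with no filter, 0.32 with the filter at the 50th percentile, both with other genes in it, and 0.73 to 1.19 with 1 array left out. The fused-type median, 0.71 over Flg2 and Hrnr, was 0.071 with no filter and 0.27 (control replicate 2 removed) to 1.14 (control replicate 1 removed) with 1 array left out. That of the recognition genes, 1.16, was 1.37 at the 50th percentile, which left Pglyrp3 alone. With 1 array left out Hrnr ran from -0.032 (control replicate 2 removed; -0.03 for Ovol2 BT replicate 1) to 0.15 and Lor from -0.020 to 0.055 (-0.00083 without control replicate 2), so both changed sign; the other 24 members tested kept theirs. Deviations of same-numbered arrays correlated at -0.17. A crossed pairing, added after this was seen, called 5 genes and 0 members.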
